A study of Mus musculus with 20 samples.

Results

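The genes described here are 8 that encode surface antigens of haematopoietic stem and progenitor cells. Slamf1, Cd48, Ly9 and Slamf6 encode receptors of the SLAM family, Cd34 a sialomucin, Cd27 a receptor of the TNF receptor superfamily, and Ly6a and Ly6e small proteins anchored to the membrane by a lipid. They were chosen by symbol, as antigens used to part stem cells from progenitors and their SLAM relatives. All 8 were found among the 49568 genes of the count tables, and all 8 passed the filter on low counts in every comparison. Transcripts were sequenced from 4 groups of 5 libraries each: multipotent progenitors (MPP) from mice labelled as knockouts of Ahr (Ahr-KO), MPP from wild-type mice (WT), long-term haematopoietic stem cells (LT-HSC) from Ahr-KO mice, and LT-HSC from WT mice. Ahr encodes the aryl hydrocarbon receptor, a transcription factor activated by ligands, and the study's title places its interest in Aurora A and in cell division at G2/M. Cells of all groups were sorted from bone marrow by flow cytometry, from untreated mice 8 to 12 weeks of age. The labels give the strain of all mice as C57BL/6, and the knockout allele is not given in the sources used here. Nor are the antigens of the sort, so where a protein named here was gated on, its difference between MPP and LT-HSC cannot be told apart from the gate. The labels do not say that libraries came from separate mice, so p-values measure the spread between these libraries. All values are of transcripts and not of protein at the surface.

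SLAM receptors are immunoglobulin-like molecules of blood cells, and most of them bind another copy of themselves on a neighbouring cell. CD48, the product of Cd48, has no cytoplasmic tail and is the ligand of CD244. In mouse bone marrow, CD150 (the product of Slamf1) is retained on long-term repopulating stem cells, whereas CD48 and CD34 appear on progenitors that repopulate only for a time. CD27 is a receptor for CD70. Sca-1, the product of Ly6a, marks both stem cells and multipotent progenitors and is raised by interferon.

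The libraries held 13712668 to 20738468 counts in Ahr-KO MPP, 15496924 to 20375242 in WT MPP, 16133048 to 21484304 in Ahr-KO LT-HSC and 18105914 to 21622653 in WT LT-HSC. Levels are given as CPM, counts relative to the library total after TMM scaling. Lists of identity went in the direction of the labels. All 14 genes of a list of LT-HSC identity were lower in MPP in both genotypes. All 10 of a list of MPP identity, which includes Cd34, Cd48 and Cd27, were higher. All of these passed at an adjusted p under 0.05 by edgeR. Dntt, on the MPP list, had a median of 0.137 CPM in Ahr-KO LT-HSC and 0.102 CPM in WT LT-HSC. It passed the filter on low counts mainly through MPP libraries, where it was high, so its call supports nothing. Of all genes tested, 10.7% passed as lower and 12.5% as higher in Ahr-KO. In WT 1960 genes of 17416 passed as lower and 1916 as higher. The lists were chosen with earlier results of these data known, so these counts describe the libraries and do not test the labels. Transcripts of Ahr were present in every library, at 9.80 to 19.2 CPM in Ahr-KO MPP against 5.80 to 14.2 CPM in WT MPP, and at 18.5 to 29.7 CPM in Ahr-KO LT-HSC against 20.8 to 36.6 CPM in WT LT-HSC. A count per gene therefore does not check the genotype, and the directions below are those between libraries as labelled. Ahr-KO LT-HSC 2 and 3 stood apart: the summed level of 10 neutrophil genes was 1005 and 1516 CPM in them and 7.09 to 96.4 CPM in the remaining 8, and that of 10 monocyte and macrophage genes was 2133 and 2366 CPM against 458 to 682 CPM. Libraries of WT LT-HSC were least alike, with correlations across genes down to 0.925, where no other group fell below 0.958. Within that group WT LT-HSC 1 had the lowest TMM factor, 0.973 against 1.025 to 1.032 in the others.

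The 5′ ends of 4 genes that the results turn on are shown because Cd48 and Slamf1 are neighbours that moved in opposite directions, Slamf6 lies in the same cluster, and Cd34 had the smallest p. The sequences run from 250 bases before the start of the gene to 50 after it (RefSeq, GRCm38.p6, all on the plus strand), at chr1:171681742-171682041 for Cd48, chr1:171766882-171767181 for Slamf1, chr1:171917212-171917511 for Slamf6 and chr1:194938571-194938870 for Cd34. Starts and offsets of these windows are those of RefSeq. In GENCODE, used further on, Cd48 starts at chr1:171682009, and Slamf6 at chr1:171917515, after the end of its window. Capitals mark the letters of 5 core motifs searched on both strands.
Cd48: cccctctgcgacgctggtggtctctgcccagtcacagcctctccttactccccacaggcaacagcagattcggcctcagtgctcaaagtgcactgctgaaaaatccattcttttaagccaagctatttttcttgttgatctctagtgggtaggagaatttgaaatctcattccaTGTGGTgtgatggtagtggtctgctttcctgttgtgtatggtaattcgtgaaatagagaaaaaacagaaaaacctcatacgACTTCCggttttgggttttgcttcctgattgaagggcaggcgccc
Slamf1: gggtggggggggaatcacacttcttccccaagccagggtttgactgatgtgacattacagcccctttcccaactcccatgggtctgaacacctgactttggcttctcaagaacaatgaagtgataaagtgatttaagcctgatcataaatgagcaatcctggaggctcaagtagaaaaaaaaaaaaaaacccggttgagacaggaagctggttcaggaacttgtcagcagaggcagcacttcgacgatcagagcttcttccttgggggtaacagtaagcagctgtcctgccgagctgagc
Slamf6: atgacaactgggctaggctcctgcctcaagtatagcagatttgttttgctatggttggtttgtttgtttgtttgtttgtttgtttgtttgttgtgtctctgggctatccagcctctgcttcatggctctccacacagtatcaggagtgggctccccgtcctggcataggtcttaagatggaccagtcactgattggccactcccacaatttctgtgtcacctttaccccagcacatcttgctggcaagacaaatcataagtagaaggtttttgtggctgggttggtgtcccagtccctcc
Cd34: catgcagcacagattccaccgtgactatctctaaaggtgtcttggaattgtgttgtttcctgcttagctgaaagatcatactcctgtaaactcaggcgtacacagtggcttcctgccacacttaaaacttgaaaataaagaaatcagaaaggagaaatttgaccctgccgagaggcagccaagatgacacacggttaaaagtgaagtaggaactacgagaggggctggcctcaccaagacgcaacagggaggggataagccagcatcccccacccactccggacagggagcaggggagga
The table of promoter windows held 5 of the 8 genes, these 4 and Cd27, and did not hold Ly9, Ly6a or Ly6e. The Cd48 window has the RUNX core TGTGGT starting 76 bases before the start of the gene, a string found in 16.8% of all 32851 promoter windows. It also has the ETS core GGAAGT, read on the opposite strand, starting 5 bases after the start, a string found in 23.8% of windows. None of the 5 windows holds the core of the AHR response element, GCGTG (32.4% of windows), the GATA core AGATAA (11.2%) or the interferon-stimulated response element (the letters GAAA repeated across a gap of NN, 3.44%). A match is a description of letters and not a bound site.

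MPP differed from LT-HSC in 7 of the 8 genes in Ahr-KO mice and in 6 of 8 in WT mice, by edgeR's quasi-likelihood F test at an adjusted p under 0.05 (Benjamini-Hochberg over all genes tested). Of all genes tested, 23.2% passed in Ahr-KO and 22.3% in WT. Cd34, Cd48, Ly9 and Cd27 were higher in MPP and Slamf1 was lower in MPP, in both genotypes. Slamf6 passed as higher and Ly6a as lower in Ahr-KO only, and Ly6e passed as higher in WT only; no gene passed the test of the difference between the genotypes, given further on. The lowest and highest libraries of the groups did not overlap for 6 of the 8 genes in Ahr-KO (21.6% of all genes) and for 4 of 8 in WT (16.4% of all genes). Since the 8 genes were chosen as antigens that part these populations, these shares describe them and test nothing. In sorted bulk samples, fewer cells of a type and less RNA per cell cannot be told apart.

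**Figure D1:**
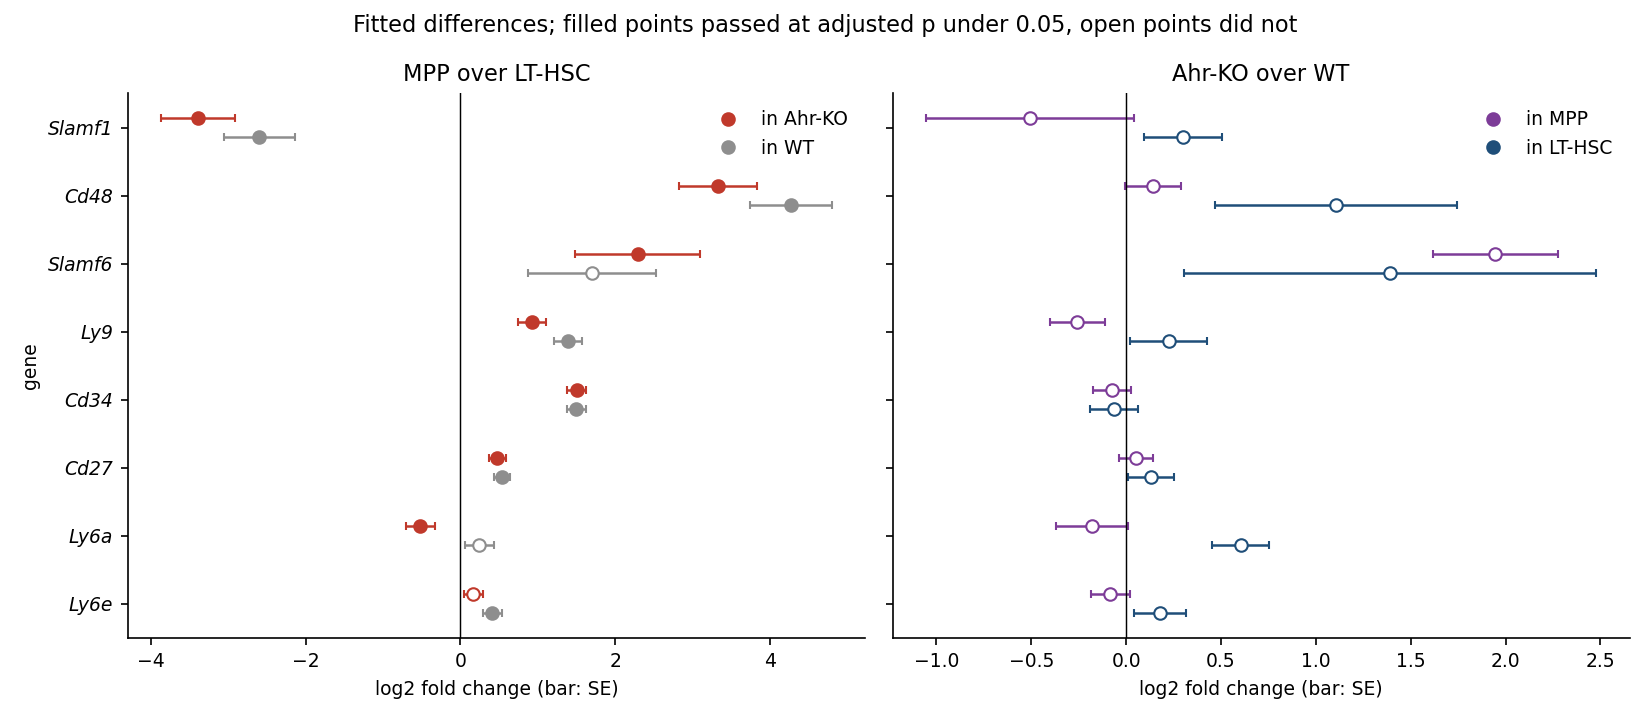
Fitted log2 fold changes of the 8 genes (points) with their standard errors (bars), for MPP over LT-HSC in Ahr-KO and in WT on the left and for Ahr-KO over WT in MPP and in LT-HSC on the right. Filled points passed at an adjusted p under 0.05, as 7 did in Ahr-KO and 6 in WT on the left and none did on the right; the scales of the panels differ.

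Slamf1, which encodes the stem cell antigen CD150, was the gene of the 8 that fell furthest in MPP. It had 4.57, 5.98, 1.122, 1.52 and 11.2 CPM in Ahr-KO MPP, against 52.4, 44.6, 43.8, 55.0 and 59.0 CPM in Ahr-KO LT-HSC. In WT it had 9.28, 7.87, 2.34, 6.17 and 8.83 CPM in MPP, against 21.5, 46.3, 44.4, 51.6 and 45.1 CPM in LT-HSC. Every MPP library lay below every LT-HSC library in both genotypes, and the nearest approach was between 11.2 CPM in Ahr-KO MPP 5 and 21.5 CPM in WT LT-HSC 1. The level was 10.4-fold lower in MPP in Ahr-KO (log2 fold change -3.38 ± 0.48, SE, adjusted p = 3.72e-05) and 6.06-fold lower in WT (-2.60 ± 0.46, adjusted p = 3.92e-04).

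Cd48, next to Slamf1 on the chromosome, went the other way. It had 197, 236, 202, 236 and 150.3 CPM in Ahr-KO MPP, against 13.2, 35.7, 43.4, 7.23 and 2.36 CPM in Ahr-KO LT-HSC. Its WT levels were 239.7, 168, 156, 163 and 201 CPM in MPP, against 9.99, 5.85, 7.08, 12.1 and 13.1 CPM in LT-HSC. All MPP libraries lay above all LT-HSC libraries. The highest LT-HSC libraries were Ahr-KO 2 and 3, those with the highest levels of neutrophil, of monocyte and macrophage, and of erythroid genes. The level was 10.01-fold higher in MPP in Ahr-KO (log2 fold change 3.32 ± 0.50, adjusted p = 7.67e-05) and 19.2-fold higher in WT (4.27 ± 0.53, adjusted p = 9.26e-06). With Ahr-KO LT-HSC 2 and 3 and WT LT-HSC 1 left out, the Ahr-KO value was 4.73 and the WT value 4.28.

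The balance of the pair within a library parted the populations without any scaling. The log2 ratio of Cd48 to Slamf1 counts averaged 5.84 ± 1.54 in Ahr-KO MPP against -1.97 ± 1.904 in Ahr-KO LT-HSC, and 4.87 ± 0.66 in WT MPP against -2.12 ± 0.73 in WT LT-HSC (SD, n = 5). It was above 0 in all 10 MPP libraries, from 3.74 to 7.46, and below 0 in all 10 LT-HSC libraries, from -4.62 to -0.01. Ahr-KO LT-HSC 3 was the library at -0.01. The log2 ratio of Cd34 to Slamf1 was 8.13 ± 1.46 in Ahr-KO MPP against 2.78 ± 0.26 in Ahr-KO LT-HSC, and 7.37 ± 0.85 in WT MPP against 3.19 ± 0.73 in WT LT-HSC.

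**Figure D2:**
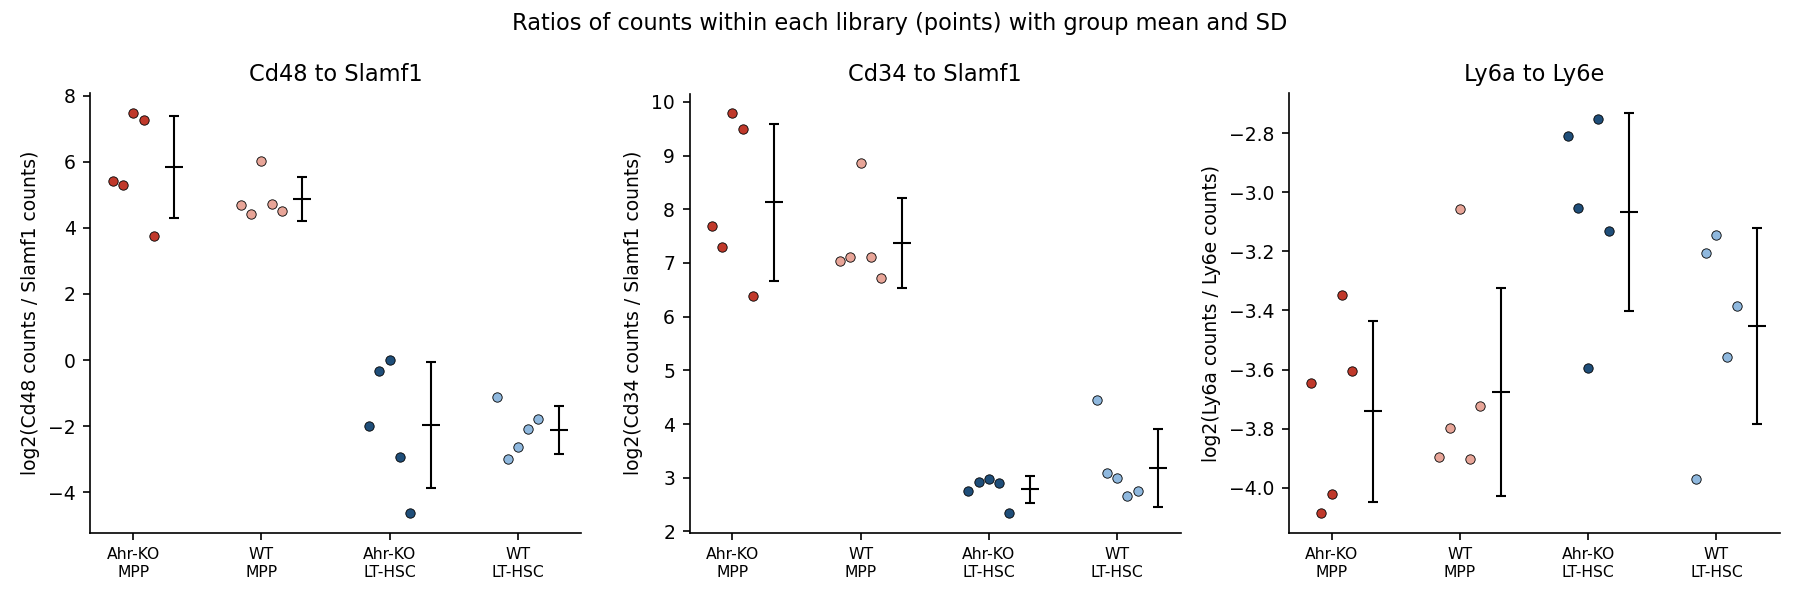
Log2 ratios of counts of Cd48 to Slamf1, Cd34 to Slamf1 and Ly6a to Ly6e within each library (points), with the mean and SD of the 5 libraries of each group. The Cd48 to Slamf1 ratio lay between 3.74 and 7.46 in the MPP libraries and between -4.62 and -0.01 in the LT-HSC libraries; the ratio of Ly6a to Ly6e overlapped between the groups.

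Both genes lie in a cluster of 7 SLAM receptor genes that spans 394 kb of chromosome 1 (GRCm38, GENCODE M21). Cd48 is at chr1:171682009-171705258 and Slamf1 at chr1:171767127-171801184, both on the plus strand, with 61.9 kb between the end of Cd48 and the start of Slamf1. Going along the chromosome, Cd244 (listed as Cd244a in GENCODE), Ly9, Slamf7 and Cd48 had positive values in MPP over LT-HSC in both genotypes, Slamf1 and Cd84 negative ones, and Slamf6, the last, positive ones. Cd244, the receptor for CD48, was higher in MPP by 3.00 ± 0.26 in Ahr-KO and by 3.81 ± 0.27 in WT on the log2 scale, at 38.8 ± 11.3 CPM in Ahr-KO MPP against 4.83 ± 1.63 CPM in Ahr-KO LT-HSC and 39.6 ± 8.50 CPM in WT MPP against 2.83 ± 0.883 CPM in WT LT-HSC. The receptor and its ligand thus passed in the same direction, while the receptor Cd84 passed as lower by a small step of -0.30 ± 0.10 in Ahr-KO and -0.35 ± 0.10 in WT.

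**Figure D3:**
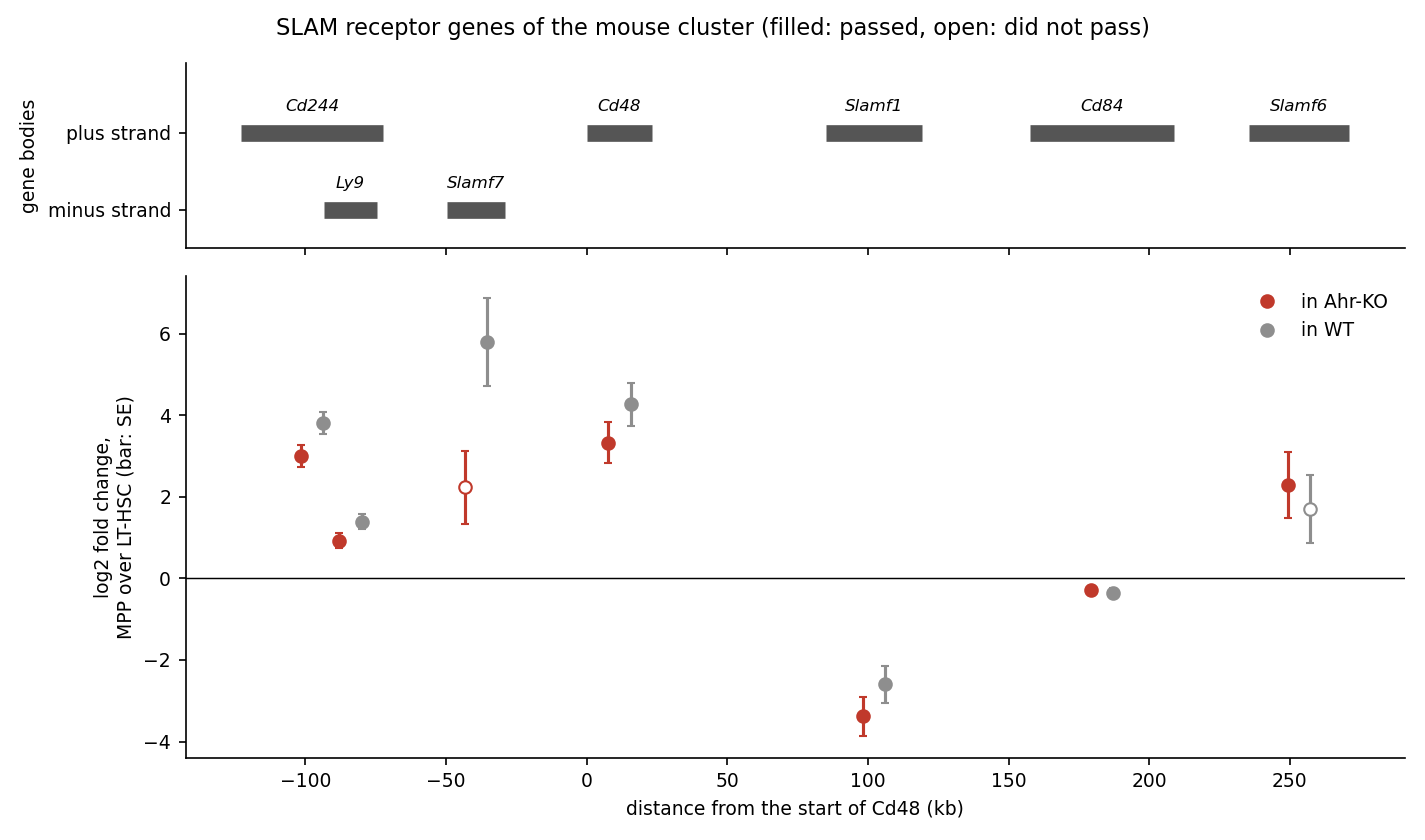
Bodies of the 7 SLAM receptor genes by strand (top) and their log2 fold changes in MPP over LT-HSC with standard errors (bottom), against distance in kb from the start of Cd48; filled points passed at an adjusted p under 0.05 and open points did not. Slamf1 was the lowest, at -3.38 in Ahr-KO and -2.60 in WT, between Cd48 at 3.32 and 4.27 and Cd84 at -0.30 and -0.35.

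Ly9, which encodes a SLAM receptor of lymphocytes, was higher in MPP in both genotypes by a moderate step. It had 34.1, 49.4, 42.6, 48.7 and 36.6 CPM in Ahr-KO MPP, against 17.8, 22.9, 28.3, 24.4 and 17.9 CPM in Ahr-KO LT-HSC. WT mice gave 66.5, 45.5, 50.7, 46.0 and 44.5 CPM in MPP, against 20.1, 21.9, 21.5, 11.3 and 21.5 CPM in LT-HSC. The populations did not overlap in either genotype. The log2 fold change was 0.92 ± 0.18 in Ahr-KO (1.899-fold, adjusted p = 9.69e-04) and 1.39 ± 0.18 in WT (2.63-fold, adjusted p = 2.02e-05). Ly9 lies at chr1:171588624-171607410 on the minus strand, within the span of Cd244 on the other strand but with no exon bases shared.

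Slamf6, the SLAM receptor also known as Ly108, was the lowest of the 8 per length of transcript in every group and rested on few reads in LT-HSC. It had 8.29, 6.56, 8.11, 5.91 and 8.49 CPM in Ahr-KO MPP, against 0.660, 3.27, 3.20, 0.412 and 0.0606 CPM in Ahr-KO LT-HSC, the last a single count. In WT it had 0.750, 1.84, 1.43, 2.70 and 2.87 CPM in MPP, against 0, 0.317, 0.509, 0.108 and 1.98 CPM in LT-HSC. WT LT-HSC 1 had 0 counts, which allows a level of up to 0.143 CPM (3 counts, counting error only). The populations were apart in Ahr-KO and overlapped in WT. The fitted log2 step was 2.29 ± 0.81 in Ahr-KO (adjusted p = 0.0456) and 1.70 ± 0.83 in WT (adjusted p = 0.157). In Ahr-KO the call was lost when any of the 5 MPP libraries, or Ahr-KO LT-HSC 1, 4 or 7, was left out (adjusted p 0.0639 to 0.112), and without Ahr-KO LT-HSC 2 and 3 and WT LT-HSC 1 the value was 4.25 (adjusted p = 4.66e-04). In WT the call appeared without WT LT-HSC 8 (2.98, adjusted p = 0.0211).

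Cd34, the sialomucin whose appearance marks the step out of the long-term compartment in adult mice, had the smallest p of the 8 in both genotypes. It had 954, 946, 1011, 1109 and 934 CPM in Ahr-KO MPP, against 356, 338, 346, 409 and 300.5 CPM in Ahr-KO LT-HSC. The WT libraries had 1230.1, 1092, 1099.5, 858 and 939 CPM in MPP, against 470.5, 394, 355, 325 and 302 CPM in LT-HSC. All MPP libraries lay above all LT-HSC libraries. By log2 fold change the step was 1.502 ± 0.12 in Ahr-KO (2.83-fold, adjusted p = 5.48e-08) and 1.498 ± 0.12 in WT (2.82-fold, adjusted p = 4.65e-08). Cd34 is at chr1:194938819-194961279 on the plus strand, and 148 of its exon bases (2.03%) overlap an antisense transcript, Gm16897, from which reads cannot be parted without strand.

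Of the relatives of Cd34, the sialomucin Podxl was lower in MPP by -4.19 ± 0.44 in Ahr-KO and by -3.16 ± 0.42 in WT. Podxl averaged 1.79 CPM in Ahr-KO MPP against 32.9 CPM in Ahr-KO LT-HSC, and 1.98 CPM in WT MPP against 17.8 CPM in WT LT-HSC. Another sialomucin, Podxl2, averaged 0.441 CPM or less in every group and did not pass in either genotype.

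Cd27 rose by a small step in MPP. It had 144, 147, 149, 164 and 140.1 CPM in Ahr-KO MPP, against 112, 98.97, 101, 124 and 99.3 CPM in Ahr-KO LT-HSC. In WT it had 145, 157, 148, 119.9 and 147 CPM in MPP, against 123, 109, 92.4, 85.9 and 83.3 CPM in LT-HSC. The populations were apart in Ahr-KO, and in WT they overlapped through WT MPP 4 and WT LT-HSC 1. The log2 fold change was 0.48 ± 0.11 in Ahr-KO (1.39-fold, adjusted p = 0.00284) and 0.54 ± 0.11 in WT (1.45-fold, adjusted p = 0.00109). Cd27 is at chr6:125232622-125237010 on the minus strand, and 129 of its exon bases overlap the microRNA gene Mir8113.

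Of 9 genes on a list of CD27 signalling, 8 were tested for MPP over LT-HSC. In Ahr-KO 2 of the 8 passed and in WT 1, where 23.2% of all genes passed in Ahr-KO and 22.3% in WT. These counts do not set the list apart. Besides Cd27 itself, only Birc2, which encodes an inhibitor of apoptosis recruited by TNF receptors, passed, and only in Ahr-KO (0.33 ± 0.12, adjusted p = 0.0415). Cd70, the ligand of CD27, had 0.0721 CPM or less in every library and was not tested. The median log2 fold change of the list was 0.20 in Ahr-KO and 0.06 in WT, beside 0.01 over all genes in either genotype.

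**Figure D4:**
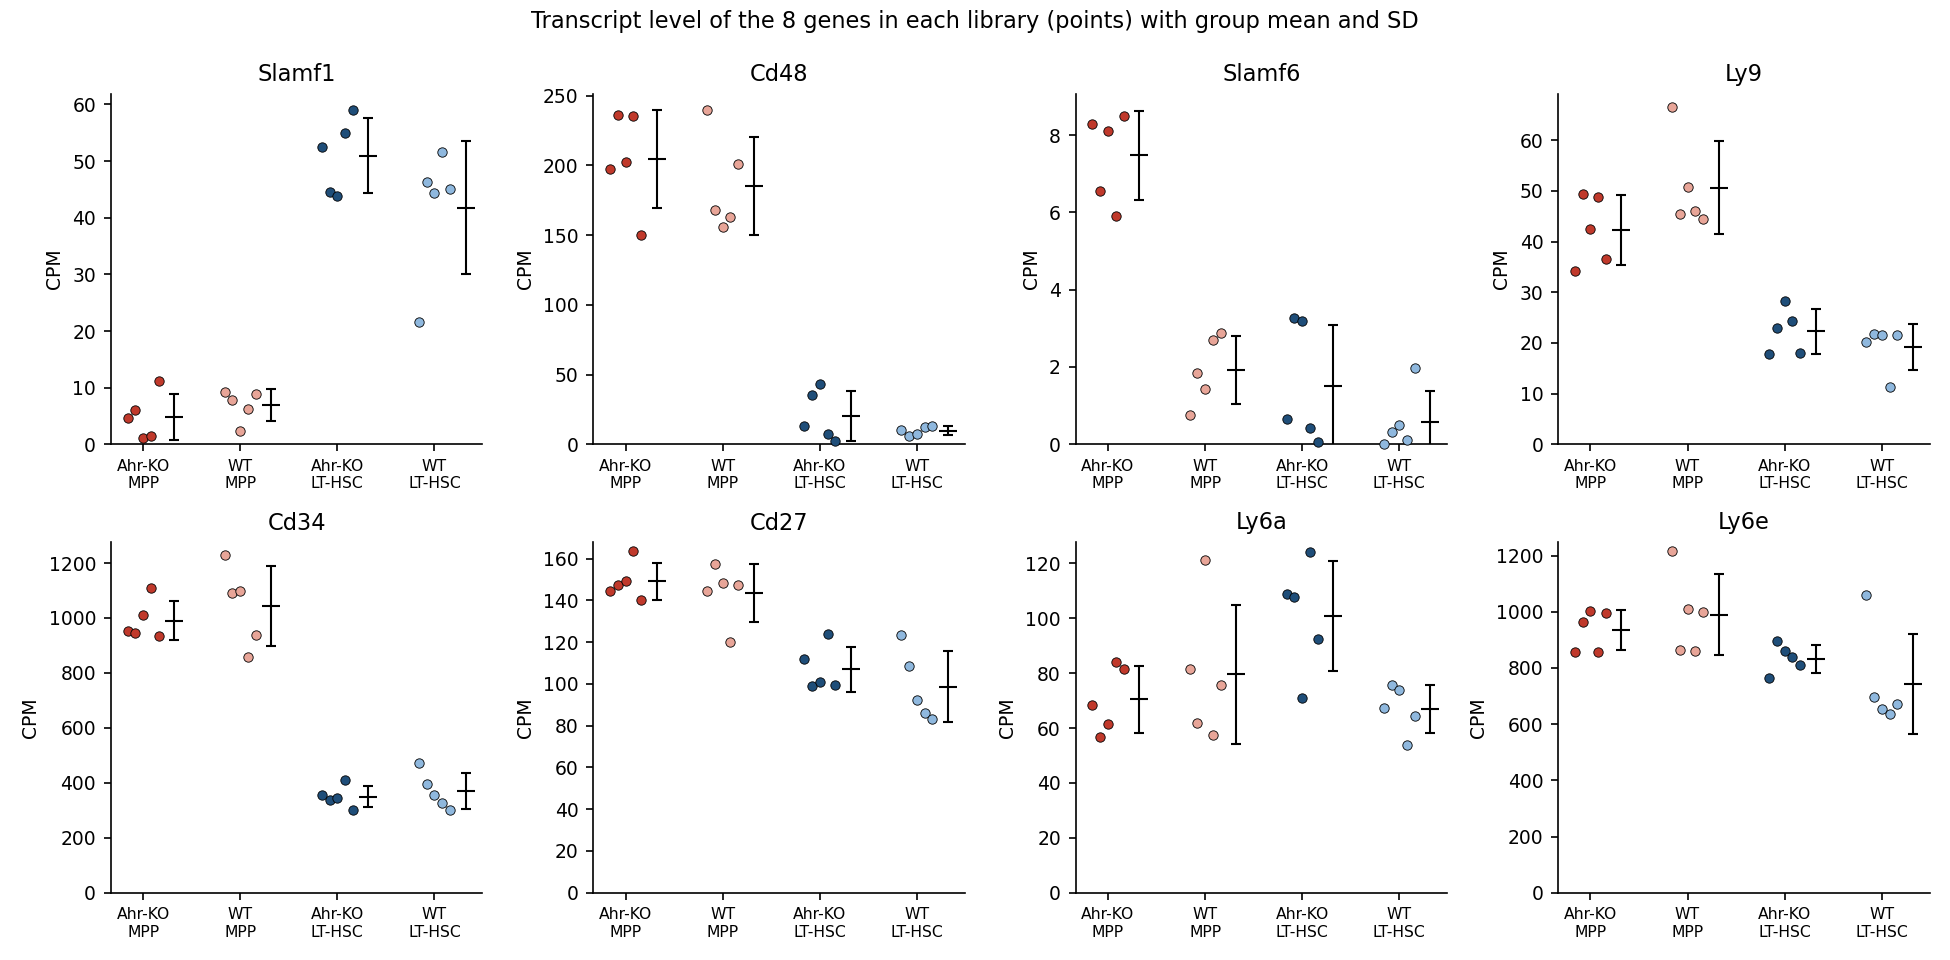
Level in CPM of each of the 8 genes in each library (points), with the mean and SD of the 5 libraries of each group beside them; each axis starts at 0 and SD bars that reach below 0 are clipped there. Slamf1 is low in both MPP groups, Cd48, Ly9, Cd34 and Cd27 are high there, Slamf6 is highest in Ahr-KO MPP, and the ranges of Ly6a and Ly6e overlap between groups.

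Ly6a and Ly6e, from the Ly6 family of chromosome 15, differed little between the populations. Ly6a, which encodes Sca-1, had 68.4, 56.6, 61.6, 84.1 and 81.7 CPM in Ahr-KO MPP, against 109, 108, 71.1, 124 and 92.5 CPM in Ahr-KO LT-HSC. In WT mice there were 81.5, 62.0, 121, 57.4 and 75.6 CPM in MPP, against 67.4, 75.7, 74.0, 53.8 and 64.3 CPM in LT-HSC. The ranges overlapped in both genotypes. Ly6a was 1.43-fold lower in MPP in Ahr-KO (log2 fold change -0.52 ± 0.18, adjusted p = 0.0486), and in WT the value was 0.25 ± 0.18 (adjusted p = 0.383). The Ahr-KO call was lost without any of Ahr-KO LT-HSC 1, 2, 4 or 7 or Ahr-KO MPP 1, 2 or 3 (adjusted p 0.0517 to 0.129). Ly6a lies at chr15:74994877-74998031 on the minus strand and shares 19.0% of its 50-base strings with Ly6c1, Ly6i, Ly6c2 and I830127L07Rik. How reads that match more than 1 gene were counted is not given, so the effect on its counts is unknown.

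Ly6e, a relative that is also raised by interferon, was the most abundant of the 8 per length of transcript in every group. It had 858, 962, 1002, 857 and 995 CPM in Ahr-KO MPP, against 763, 895, 860.0, 838 and 810.1 CPM in Ahr-KO LT-HSC. In WT it had 1216, 864, 1011, 859 and 999.8 CPM in MPP, against 1059, 698, 654, 635 and 672 CPM in LT-HSC. The ranges overlapped in both genotypes, in WT through WT LT-HSC 1 alone. On the log2 scale the step was 0.17 ± 0.13 in Ahr-KO (adjusted p = 0.381) and 0.41 ± 0.13 in WT (1.33-fold, adjusted p = 0.0221). The WT call was lost without WT LT-HSC 4, 5, 6 or 8 or WT MPP 1 or 5 (adjusted p 0.0503 to 0.0855). Ly6e is at chr15:74955051-74959905 on the plus strand.

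None of the 8 genes passed the test between Ahr-KO MPP and WT MPP, beside 0.0311% of all genes that passed in this comparison (5 genes, and 1065 genes, 6.62%, at an unadjusted p under 0.05). Slamf6 came nearest. Its mean was 7.47 ± 1.16 CPM in Ahr-KO MPP against 1.92 ± 0.883 CPM in WT MPP (SD, n = 5), and the 5 Ahr-KO libraries, at 5.91 CPM or more, were apart from the 5 WT libraries, at 2.87 CPM or less. It was the only one of the 8 whose ranges did not overlap here, beside 1.17% of all genes. The log2 fold change of 1.95 ± 0.33 had an unadjusted p of 5.2e-05 by edgeR, the 8th smallest of all genes, and an adjusted p of 0.105. Slamf6 passed under DESeq2 (1.95, adjusted p = 5.23e-06), which called 0.311% of genes, and under limma voom with quality weights (2.001, adjusted p = 0.0214), which called 0.0498%. It also passed in edgeR without a filter on low counts (adjusted p = 0.0498). Over all alternatives its adjusted p ran from 5.23e-06 to 0.964, and the value from 1.74 to 2.14.

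Marker lists of other blood cells were read beside Slamf6 in MPP. All 10 genes of a list for B cells and their precursors were above 0 in each group and all 10 had positive log2 fold changes in Ahr-KO over WT MPP, with a median of 1.41 beside 0.0048 over all genes, and 0 passed. In single MPP libraries 8 to 10 of these genes were above 0, so some had no reads in some libraries. The summed level of all 10 was 92.1 to 172 CPM in Ahr-KO MPP against 65.0 to 131 CPM in WT MPP. The summed level of 10 T and NK cell genes was 302 to 465 CPM in Ahr-KO MPP against 276 to 384 CPM in WT MPP. Both sums overlapped between the genotypes. Of 9 megakaryocyte and platelet genes tested, none had a positive value (median -0.91), and Pf4, which encodes a platelet chemokine, passed as lower, at 50.4 ± 15.2 CPM in Ahr-KO MPP against 118 ± 15.3 CPM in WT MPP (log2 fold change -1.22 ± 0.18, adjusted p = 0.0491 by edgeR). The summed level of the 10 genes of that list was 193 to 371 CPM in Ahr-KO MPP against 328 to 455 CPM in WT MPP. The part of such cells in the level of Slamf6 was not tested.

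The other 7 genes had small values in Ahr-KO over WT MPP. Cd48 was at 0.14 ± 0.15 (adjusted p = 0.878), Cd27 at 0.05 ± 0.09 (adjusted p = 0.929), Cd34 at -0.08 ± 0.10 (adjusted p = 0.909) and Ly6e at -0.08 ± 0.10 (adjusted p = 0.898). Ly6a was at -0.18 ± 0.19 (adjusted p = 0.880), Ly9 at -0.26 ± 0.14 (adjusted p = 0.776) and Slamf1 at -0.51 ± 0.55 (adjusted p = 0.883). Slamf1 had the widest error of these, with Ahr-KO libraries from 1.122 to 11.2 CPM against WT libraries from 2.34 to 9.28 CPM.

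Between Ahr-KO LT-HSC and WT LT-HSC none of the 8 genes passed either, beside 0.00622% of all genes that passed (1 gene, and 1422 genes, 8.85%, at an unadjusted p under 0.05). The ranges overlapped for all 8 genes, where 3.64% of all genes had ranges apart. Ly6a came nearest: 4 of the 5 Ahr-KO libraries exceeded the highest WT library, and the mean was 101 ± 20.1 CPM in Ahr-KO LT-HSC against 67.1 ± 8.73 CPM in WT LT-HSC. The log2 fold change of 0.60 ± 0.15 had an unadjusted p of 0.00206 by edgeR, the 79th smallest of all genes, and an adjusted p of 0.409. DESeq2 called it (0.59, adjusted p = 0.0402), with 0.915% of all genes called, and the adjusted p ran from 0.0402 to 0.9997 over all alternatives. The value stayed between 0.51 and 0.71 in all of them, and without Ahr-KO LT-HSC 2 and 3 it was 0.70.

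Cd48 and Slamf6 had the largest log2 fold changes of the 8 in Ahr-KO over WT LT-HSC, at 1.10 ± 0.64 (adjusted p = 0.658) and 1.39 ± 1.09 (adjusted p = 0.751), and both rested on Ahr-KO LT-HSC 2 and 3. Cd48 had 35.7 and 43.4 CPM in these libraries, against 2.36 to 13.2 CPM in the remaining 8. Slamf6 had 3.27 and 3.20 CPM in them, against 0 to 1.98 CPM in the other 8. Without these libraries the values were -0.33 for Cd48 and -0.60 for Slamf6, both with an adjusted p of 0.999. All 10 neutrophil genes had positive log2 fold changes in this comparison, with a median of 3.91 beside 0.00079 over all genes. In Ahr-KO LT-HSC 2 and 3 the summed level of 10 erythroid genes was also high, at 2572 and 3025 CPM against 129.7 to 1875 CPM in the other 8 libraries. The 10 genes of MPP identity, Cd48 among them, summed to 2527 and 2371 CPM in these libraries against 617 to 1569 CPM in the remaining 8. Genes of stroma and endothelium summed to 3823 CPM in Ahr-KO LT-HSC 3 against 98.1 to 174 CPM in the remaining 9. The part of any of these cell types in the levels of Cd48 and Slamf6 was not tested.

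**Figure D5:**
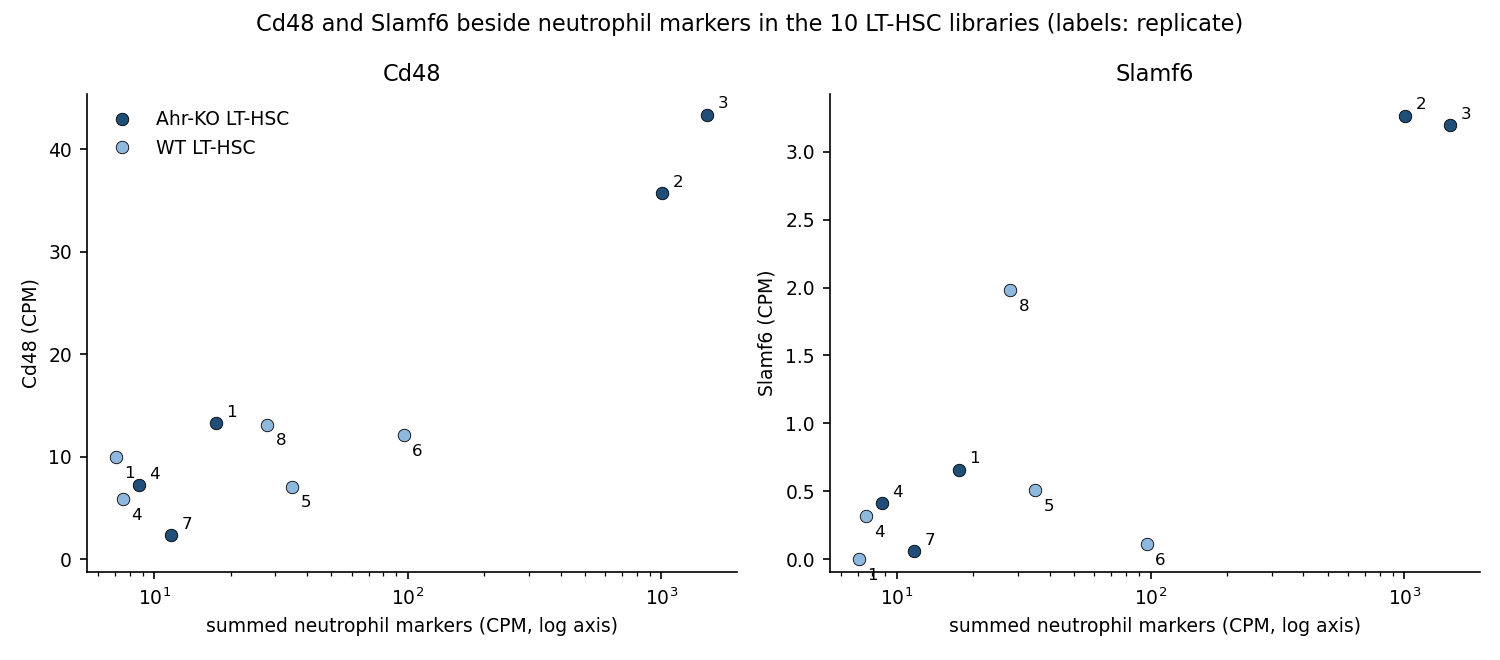
Level of Cd48 (left) and Slamf6 (right) in CPM against the summed level of 10 neutrophil genes in CPM (log axis) in the 10 LT-HSC libraries, with the replicate number beside each point. Ahr-KO LT-HSC 2 and 3, at 1005 and 1516 CPM of neutrophil genes, are the highest of the 10 libraries for both genes.

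The remaining genes had smaller values in Ahr-KO over WT LT-HSC. Slamf1 was at 0.30 ± 0.21 (adjusted p = 0.726), with 51.0 ± 6.62 CPM in Ahr-KO against 41.8 ± 11.7 CPM in WT, where WT LT-HSC 1 had 21.5 CPM. Without that library the value was 0.13 (adjusted p = 0.497). Ly9 was at 0.23 ± 0.20 (adjusted p = 0.796), Cd27 at 0.13 ± 0.12 (adjusted p = 0.803) and Cd34 at -0.06 ± 0.13 (adjusted p = 0.924). Ly6e was at 0.18 ± 0.14 (adjusted p = 0.742), and leaving out WT LT-HSC 1, whose Ly6e level of 1059 CPM was above all other LT-HSC libraries, made it pass (0.34, adjusted p = 0.0176). Limma voom with quality weights called it as well (0.33, adjusted p = 0.0210), with 1.9% of all genes called.

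None of the 8 genes passed the test of the Ahr-KO effect in MPP against that in LT-HSC, and 0 of 17416 genes passed this test by edgeR, with 1125 genes (6.46%) at an unadjusted p under 0.05. DESeq2 called 51 genes (0.293%) and limma voom 18 (0.103%), none of the 8. Ly6a came nearest, with an effect of -0.18 in MPP and 0.60 in LT-HSC and a difference of -0.76 ± 0.26 (unadjusted p = 0.00846 and adjusted p = 0.598 by edgeR). The difference was negative in all 26 alternatives, from -0.88 to -0.56. For the other 7 genes the adjusted p was 0.818 or more. Thus for Ly6a, Ly6e and Slamf6 a call in MPP over LT-HSC in 1 genotype was not shown to differ from the other genotype.

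Set on a scale per kilobase of exon, the 8 genes kept nearly the same order in both genotypes of a population. In Ahr-KO MPP the order was Ly6e (247 ± 19.1 CPM per kb), Cd48 (172 ± 29.6), Cd34 (136 ± 9.94), Cd27 (64.0 ± 3.87), Ly6a (58.5 ± 10.04), Ly9 (12.8 ± 2.09), Slamf1 (0.792 ± 0.663) and Slamf6 (0.690 ± 0.107). Of these neighbours, the libraries of Cd48 and Cd34, of Cd27 and Ly6a, and of Slamf1 and Slamf6 overlapped. WT MPP had the same order except that Ly6a (66.0 ± 21.0) stood before Cd27 (61.6 ± 6.04), a pair that overlapped, and that Slamf1 (1.1205 ± 0.457) and Slamf6 (0.177 ± 0.0815) did not overlap. In Ahr-KO LT-HSC the order was Ly6e (220.2 ± 13.2), Ly6a (83.8 ± 16.7), Cd34 (48.0 ± 5.38), Cd27 (46.0 ± 4.66), Cd48 (17.1 ± 15.2), Slamf1 (8.28 ± 1.07), Ly9 (6.73 ± 1.36) and Slamf6 (0.140 ± 0.146). WT LT-HSC had the same order, with Ly6e at 196 ± 47.0, Ly6a at 55.7 ± 7.25, Cd48 at 8.10 ± 2.64 and Slamf6 at 0.0539 ± 0.0744. In both LT-HSC groups the neighbours Cd34 and Cd27, Cd48 and Slamf1, and Slamf1 and Ly9 overlapped, and in WT also Ly6a and Cd34. Cd48 stood in the 2nd place in MPP, against the 5th in LT-HSC, and Slamf1 in the 7th place in MPP, against the 6th in LT-HSC.

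The wider SLAM family, with its adaptors, held genes that moved in both directions. Of 13 genes of this list in the tables, 11 were tested for MPP over LT-HSC. In Ahr-KO 4 passed as higher (Cd244, Cd48, Ly9 and Slamf6) and 3 as lower (Slamf1, Fyn and Cd84), with a median of 0.97 beside 0.01 over all genes. In WT 5 passed as higher (Cd244, Cd48, Ly9, Slamf7 and Slamf9) and the same 3 as lower, with a median of 1.64 beside 0.01. These were 7 and 8 of 11, where 23.2% of all genes passed in Ahr-KO and 22.3% in WT. In WT LT-HSC libraries Slamf7 had 0 to 18 counts and Slamf9 0 to 10. Both passed the filter on low counts mainly through MPP libraries, where they were high. Their calls, and the WT count that includes them, therefore support nothing. The same holds for the medians of both genotypes, and the Ahr-KO median of 0.97 is the value of Slamf9 itself. Slamf7 had 6.05 ± 2.62 CPM in Ahr-KO MPP against 1.27 ± 1.91 CPM in Ahr-KO LT-HSC, and 14.1 ± 10.4 CPM in WT MPP against 0.249 ± 0.384 CPM in WT LT-HSC. Fyn, the kinase that SLAM adaptors recruit, was lower in MPP by -0.43 ± 0.07 in Ahr-KO and -0.53 ± 0.07 in WT. The adaptor Sh2d1a had 2.23 CPM or less in every library and was not tested, and the adaptor Sh2d1b1 did not pass (1.47 ± 0.84 in Ahr-KO and 1.64 ± 0.87 in WT). In Ahr-KO over WT 0 of 11 tested passed in MPP and 0 of 9 in LT-HSC.

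Of the Ly6 family, relatives of Ly6a and Ly6e, more genes passed in WT than in Ahr-KO, a difference that was not shown, since none passed the test between the genotypes. Of 17 family genes in the tables, 9 were tested for MPP over LT-HSC. In WT 6 passed as higher: Ly6d (5.61 ± 0.92), a marker of lymphoid progenitors, Ly6c2 (3.57 ± 0.96) and Ly6c1 (3.12 ± 0.63), which mark monocytes and other myeloid cells, Ly6k (3.00 ± 0.71), Ly6i (1.897 ± 0.54) and Ly6e. In Ahr-KO only Ly6d passed as higher (2.22 ± 0.77, adjusted p = 0.0435), and Lynx1 (-1.84 ± 0.52) and Ly6a passed as lower. The median was 0.53 in Ahr-KO and 1.897 in WT, beside 0.01 over all genes. Counts in WT LT-HSC libraries were 0 to 5 for Ly6k, 1 to 24 for Ly6d and 3 to 18 for Ly6i. Ly6k passed the filter on low counts through MPP libraries, where it was high. Its call, and the WT count that includes it, therefore support nothing. The same holds for the medians of both genotypes. Only 7 of the 9 genes were tested on the LT-HSC libraries alone. Of all genes, 12.5% passed as higher and 10.7% as lower in Ahr-KO, and in WT 1916 genes of 17416 passed as higher and 1960 as lower. Ly6c2 had 4.85 to 258 CPM in Ahr-KO LT-HSC against 1.66 to 53.5 CPM in WT LT-HSC, and its log2 fold change of 2.01 ± 1.11 in that comparison did not pass (adjusted p = 0.633). In Ahr-KO over WT 0 of 9 passed in MPP and 0 of 7 in LT-HSC. In LT-HSC all 7 values were positive, with a median of 1.07, beside 50.1% positive and a median of 0.00079 over all genes. Neutrophil and monocyte genes were high in Ahr-KO LT-HSC 2 and 3, and the part of such cells in these values was not tested.

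Of 18 other surface antigens that are used in stem and progenitor gates, 2 passed as higher in MPP and 11 as lower in Ahr-KO, and 4 as higher and 10 as lower in WT, where 23.2% of all genes passed in Ahr-KO and 22.3% in WT. The median was -0.86 in Ahr-KO and -0.69 in WT, beside 0.01 over all genes. Flt3, the cytokine receptor of lymphoid-primed progenitors, was higher by 2.74 ± 0.16 in Ahr-KO and 3.07 ± 0.17 in WT. Esam, an adhesion molecule of stem cells, was lower by -1.97 ± 0.16 and -2.04 ± 0.16. In Ahr-KO over WT 0 of 18 passed in MPP and 0 of 18 in LT-HSC.

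Because Ly6a and Ly6e are raised by interferon, 22 interferon-stimulated genes were read beside them. For MPP over LT-HSC, 1 passed as higher and 7 as lower in Ahr-KO, and 2 as higher and 5 as lower in WT. These were 8 and 7 of 22, where 23.2% of all genes passed in Ahr-KO (12.5% higher, 10.7% lower) and 22.3% in WT (1916 genes higher, 1960 lower). Ifitm1, a restriction factor at the membrane, was lower by -1.08 ± 0.09 in Ahr-KO and -1.30 ± 0.09 in WT, and Oas2 was higher by 1.68 ± 0.34 and 1.48 ± 0.34. In Ahr-KO over WT 0 of 22 passed in either population. Positive values were found in 19 of 22 in MPP (median 0.19) and in 20 of 22 in LT-HSC (median 0.21), beside 50.9% and 50.1% of all genes. Ifitm1 came nearest to passing in MPP, at 201 ± 18.9 CPM in Ahr-KO MPP against 139.9 ± 5.09 CPM in WT MPP (log2 fold change 0.52 ± 0.08, adjusted p = 0.0665).

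The genes most like each member across the 20 libraries, with the group means taken out, were ranked by Pearson's r of log2(CPM + 0.5) among 10617 genes. These are descriptions, since all points share their library and its scaling. Cd34 and Cd27 were each other's nearest, at r = 0.880. Cd48 was nearest to Cd53, which encodes a tetraspanin of leukocytes (0.963), Anxa2 (0.922) and Lgals3 (0.919). Lgals3 was also among the nearest to Slamf6 (0.832), after Kel (0.861) and Tfrc (0.849), genes of red cell precursors. Slamf1 had weaker likenesses, to Sc5d (0.771), Cadps2 (0.738) and Rhof (0.736), and Ly9 was nearest to AI854703 (0.798). Ly6a was nearest to B2m (0.784) and Tap2 (0.780), genes of antigen presentation, and Ly6e to Rnh1 (0.929), Rac2 (0.926) and H2-D1 (0.924). Within the 8, Cd48 and Slamf6 were at 0.681, whereas Cd48 and Slamf1 were at -0.141. Cd48 ran from 2.36 to 43.4 CPM and Slamf6 from 0.0606 to 3.27 CPM within Ahr-KO LT-HSC. Both were highest there in libraries 2 and 3, which stood apart in markers of other blood cells. How far the likenesses of Cd48 and Slamf6 rest on these libraries was not tested.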

How the data were processed

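Bulk RNA-seq of sorted MPP and LT-HSC was analysed in 20 libraries. The values are raw read counts per gene, as deposited by the authors in a table for each population. Per the submitters' processing notes, the tools were featureCounts in Subread 1.5.0p3, STAR 2.5.2b, DESeq2 1.12.4 and Trimmomatic 0.36, with the build GRCm38.p5. The notes give no order, annotation or settings. Per the labels' protocols, poly(A) RNA went into a kit that does not mark strand.

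Groups were taken from the labels. Genes were filtered with edgeR's filterByExpr and scaled by TMM, and tested with edgeR 4.0.16 (quasi-likelihood F test, robust) in R 4.3.3, and p-values were adjusted after Benjamini and Hochberg across every gene tested. A gene passed at an adjusted p under 0.05, and SE is the standard error of the log2 fold change. Ahr-KO was compared with WT on the 10 libraries of a population. MPP over LT-HSC, and the difference between the Ahr-KO effects, were fitted on all 20. The alternatives used DESeq2 1.42.0, limma 3.58.1, other filters, scalings and sets of libraries, and a replicate block. The statistics were tested on simulated data. Total counts of 13712668 or more per library set the precision; limits from counts cover counting error only. In the tables, 26 gene symbols had been turned into dates, none of them a gene named here.

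The 8 genes and all gene lists were chosen with earlier results of these data known. Of the lists, all SLAM and Ly6 genes could be named. Of other lists, up to 4 that passed were named by smallest p, or the nearest to passing where none did. Dntt was named as well, for its low counts in LT-HSC.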

Additional observations from a re-analysis of the deposited data

Results flagged for a closer look

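Of 32 sets of 5 libraries (8 genes in 4 groups), 5 held a library whose gap to the nearest other, divided by the range of the group, exceeded Dixon's critical value for 5 libraries. Chance gives about 1 in 20 such sets. In WT LT-HSC, Slamf1 was at 21.5 CPM in library 1 and at 44.4 to 51.6 CPM in the other 4. Ly6e was at 1059 CPM in the same library and at 635 to 698 CPM in the others. Slamf6 was at 1.98 CPM in WT LT-HSC 8 and at 0 to 0.509 CPM in the others. Ly9 was at 11.3 CPM in WT LT-HSC 6 and at 20.1 to 21.9 CPM in the others. In WT MPP, Ly9 was at 66.5 CPM in library 1 and at 44.5 to 50.7 CPM in the others. All 5 sets were WT groups, and WT LT-HSC 1 accounted for 2 of them.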

How the results depend on the processing

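For Ahr-KO over WT in LT-HSC, 0 of the 8 genes passed, against 1 with DESeq2, 1 with limma voom and 0 to 1 when 1 library was left out (0 to 203 of all genes). For Ahr-KO over WT in MPP, 0 passed, against 1 (Slamf6) without a filter, with at least 5 CPM in at least 5 libraries (which it meets only through the Ahr-KO libraries, so that this pass supports nothing), with DESeq2 and with limma voom, and 0 with 1 library left out (0 to 4 of all genes). For MPP over LT-HSC, 5 to 7 genes passed in Ahr-KO and 5 to 6 in WT with 1 library left out. The other alternatives gave 5 to 7 in Ahr-KO and 1 to 7 in WT. Over all genes, Ahr-KO over WT in LT-HSC called 1 gene by edgeR, 147 by DESeq2, 305 by limma voom, 3 with DESeq2 size factors, 4 without a filter, 3 with the 5 CPM filter, 14 with all 20 libraries in the fit and 32 without WT LT-HSC 1 and Ahr-KO LT-HSC 2 and 3. In MPP it called 5 by edgeR, 50 by DESeq2, 8 by limma voom and 3 with DESeq2 size factors.

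The labels do not say that replicate numbers pair libraries. Deviations of libraries with the same number correlated at 0.0234, 0.0861, 0.147 and 0.230 between Ahr-KO MPP and Ahr-KO LT-HSC, where 3 of 4 correlated best with their own number, and at -0.249 to 0.0687 between the other groups, where none did. Since not every pair was above 0.1, the numbers were not taken to pair the libraries. With the replicate block, 1 gene passed for MPP over LT-HSC in WT, where only 3 numbers are shared (113 of all genes), against 4 of the 8 (819 of all genes) on the same libraries without the block, an alternative chosen after seeing the data. Cd48 passed in both; Cd34 (adjusted p = 0.0649 with the block by edgeR), Slamf1 (0.119) and Ly9 (0.120) passed only without the block, and Cd27 (0.542) and Ly6e (0.457) in neither. With the block 7 passed in Ahr-KO, and 0 for Ahr-KO over WT in either population. For Ahr-KO over WT in LT-HSC, Ly9 was -0.0050 with the block and 0.0097 on the same libraries without it, and Ly6e was -0.10 with it and -0.13 without it. For MPP over LT-HSC in WT, Ly6a was -0.010 with the block and 0.0034 without it.

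Other changes of sign were in values that did not pass. For Ahr-KO over WT in LT-HSC, Cd34 was 0.044 with limma voom and 0.044 without WT LT-HSC 1 and Ahr-KO LT-HSC 2 and 3, and -0.13 to 0.036 with 1 library left out. Cd48 was -0.33 and Slamf6 -0.60 without Ahr-KO LT-HSC 2 and 3, and they were -0.32 and -0.92 with WT LT-HSC 1 left out as well. In MPP, leaving out 1 library gave -0.27 to 0.035 for Ly6a and -0.00069 to 0.089 for Cd27. For the difference between the effects, Cd34 was -0.089 with limma voom, -0.12 without the 3 libraries and -0.10 to 0.067 with 1 left out, Cd48 was 0.45 without the 3, and Slamf6 was -0.73 to 1.06 with 1 left out. The causes were not tested. Depth limits Slamf6 most, with 0 to 66 counts in LT-HSC libraries.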
